A study of Mus musculus with 12 samples.

Results

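T cells that carry 2 productive T cell receptor alpha chains (TRA) beside 1 beta chain (TRB) were identified in sorted spleen T cells, which the series title describes as CD8+. A member was a cell of the deposited cell table whose barcode had exactly 2 TRA and exactly 1 TRB contig in the deposited receptor table of the same library. There were 6123 such cells, called dual-TRA cells here, and 49967 cells with 1 TRA and 1 TRB, called single-TRA cells, out of 100540 cells in all. Of all cells, 64661 had both kinds of chain. A further 5802 cells had 1 TRA and 2 TRB, and 2769 had 2 of each.

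Wild-type C57BL/6 mice received an antibody against CD137, a TNF receptor family member that costimulates T cells (clone 3H3, 10 µg, 5 mice), or an Ig control (clone HRPN, 100 µg, 10 mice) on 2 days a week for 14 days. From the spleens of each treatment, effector cells (Teff, CD44hiPD1-), precursor exhausted cells (Tpex, CD44hiPD1+Slamf6+Tim3-) and exhausted cells (Tex, CD44hiPD1+Slamf6-Tim3+) were sorted, where CD44 marks antigen experience and PD1, Slamf6 and Tim3 are receptors used to tell stages of exhaustion apart. Each population gave 1 gene expression and 1 receptor library, so 12 samples describe 6 populations. Nothing in the labels ties cells to single mice, the 3 libraries of a treatment share their mice, and dose and number of mice differed with treatment. With 1 library per group there are no replicates, so values are described without tests or p-values. Exact Clopper-Pearson 95% intervals follow the shares and describe the error of counting alone. Cells of a clone are not independent draws, so these intervals are too narrow for the populations.

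The alpha chain of a receptor is assembled from 1 of many V and 1 of many J segments of the TRA locus. Rearrangement usually proceeds on both copies of the chromosome at the same time and can repeat, joining V segments farther upstream to J segments farther downstream. Because the locus lacks strict allelic exclusion, a T cell can keep 2 productive alpha chains, whereas the beta locus is largely held to 1. Daughters of such a cell inherit both rearrangements, so that members of a clone, recognised by their shared TRB, should carry the same pair.

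Several clones show what such a pair looks like. The junction (CDR3) sequences below, read 5′ to 3′, are those of clones chosen by the number of dual-TRA cells with the same pair, because they carry the results on clone mates. Capitals in the TRA junctions mark bases that matched neither the end of the V nor the J segment of the GENCODE M21 transcripts. The TRA with more unique molecular identifiers (UMIs, counts of captured RNA molecules) comes first.
TRBV31 clone, control Tpex and Tex, TRAV12-2 with TRAJ22: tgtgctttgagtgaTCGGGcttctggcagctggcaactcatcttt
TRBV31 clone, TRAV7-4 with TRAJ6: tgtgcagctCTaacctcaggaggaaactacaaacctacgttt
TRBV31 clone, TRB junction: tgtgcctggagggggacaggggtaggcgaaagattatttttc
TRBV2 clone, control Tex, TRAV17 with TRAJ45: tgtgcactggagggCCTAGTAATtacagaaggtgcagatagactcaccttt
TRBV2 clone, TRAV16 with TRAJ52: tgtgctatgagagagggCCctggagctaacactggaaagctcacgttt
TRBV12-1 clone, control Tpex, TRAV14-2 with TRAJ6: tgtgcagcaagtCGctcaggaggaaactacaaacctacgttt
TRBV12-1 clone, TRAV7D-2 with TRAJ42: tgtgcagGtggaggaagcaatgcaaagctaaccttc
TRBV19 clone, anti-CD137 Tex, TRAV8D-2 with TRAJ6: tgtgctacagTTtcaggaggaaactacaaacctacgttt
TRBV19 clone, TRAV13N-3 with TRAJ6: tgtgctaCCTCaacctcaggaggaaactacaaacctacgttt
TRBV12-1 clone, anti-CD137 Teff, TRAV1 with TRAJ30: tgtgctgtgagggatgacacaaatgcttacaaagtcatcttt
TRBV12-1 clone of anti-CD137 Teff, TRAV9-4 with TRAJ24: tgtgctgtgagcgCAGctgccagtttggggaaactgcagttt
In each of these 5 pairs the 2 chains use different V segments. The TRBV19 pair shares TRAJ6 and therefore the 3′ stretch of the junction, but not the V end. A junction without capitals, as in TRAV1 with TRAJ30, can be read off the germline segments alone.

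Before the results, 2 features of the libraries need stating. The anti-CD137 Tpex library stood apart in depth: the median dual-TRA cell had 2198 RNA UMIs there, against 3877 to 6151 in the other 5, and its second TRA rested on 1 UMI in 66.0% of dual-TRA cells, against 4.12 to 23.7%. Most values are given per library, and values pooled over libraries include it unless stated otherwise. The receptor table also carries a column of exact subclonotypes, which comes from a step that compares cells of a clone. The sources used here do not say whether that step dropped chains that were rare within a clone. Of 95046 distinct barcodes, 5336 occurred in at least 2 libraries and 18 were dual-TRA in at least 2. Only 1 barcode had the same TRB in more than 1 library.

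Dual-TRA cells made up 6 to 15% of cells with 1 TRB and 1 or 2 TRA. In the control the share was 12.8% in Teff (12.2 to 13.3%, 1875 of 14670 cells), 9.25% in Tpex (8.67 to 9.86%, 862 of 9319) and 6.12% in Tex (5.59 to 6.69%, 461 of 7532). With anti-CD137 it was 11.99% in Teff (11.5 to 12.5%, 2000 of 16675), 15.4% in Tpex (14.2 to 16.7%, 526 of 3409) and 8.90% in Tex (8.08 to 9.77%, 399 of 4485). The control shares thus fell in the order Teff, Tpex, Tex, with intervals that did not overlap. The anti-CD137 order was Tpex, Teff, Tex, but it depended on the setting. With at least 2 UMIs per chain the anti-CD137 Tpex share was 7.69% (6.63 to 8.86%), the lowest of the 3 beside 11.2% in Teff and 8.00% in Tex. Over all receptor barcodes, including those outside the cell table, it was 9.76%, between 11.9% in Teff and 8.00% in Tex.

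Between treatments the dual-TRA share differed by -0.787 percentage points in Teff (anti-CD137 minus control, -1.52 to -0.0521), by 6.18 points in Tpex (4.84 to 7.56) and by 2.78 points in Tex (1.78 to 3.80). The Tpex difference turned to -1.45 points when each chain had to have at least 2 UMIs. The Tex difference turned to -0.543 points when the 10 TRB with most cells were left out of each library. With each clone counted once it was 0.834 points. Neither direction therefore held under every setting tried.

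Cells with 2 TRB, which 2 cells in 1 droplet also produce, were counted beside them. Among cells with 1 TRA, the share with 2 TRB was 12.4% in control Teff, 5.53% in control Tpex and 2.99% in control Tex. It was 13.3% in anti-CD137 Teff, 22.5% in anti-CD137 Tpex and 4.69% in anti-CD137 Tex. The 2-TRB share was higher than the dual-TRA share in anti-CD137 Tpex and anti-CD137 Teff and lower in the other 4 libraries, in control Teff with intervals that overlap (11.8 to 12.9% and 12.2 to 13.3%). Cells with 2 TRB more often had a second TRA too, in 34.3%, 31.4% and 11.4% of control Teff, Tpex and Tex and in 36.9%, 21.4% and 13.4% with anti-CD137. In anti-CD137 Tex that share overlaps the share among cells with 1 TRB (9.26 to 18.4% and 8.08 to 9.77%). How many droplets held 2 cells was not tested.

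**Figure D1:**
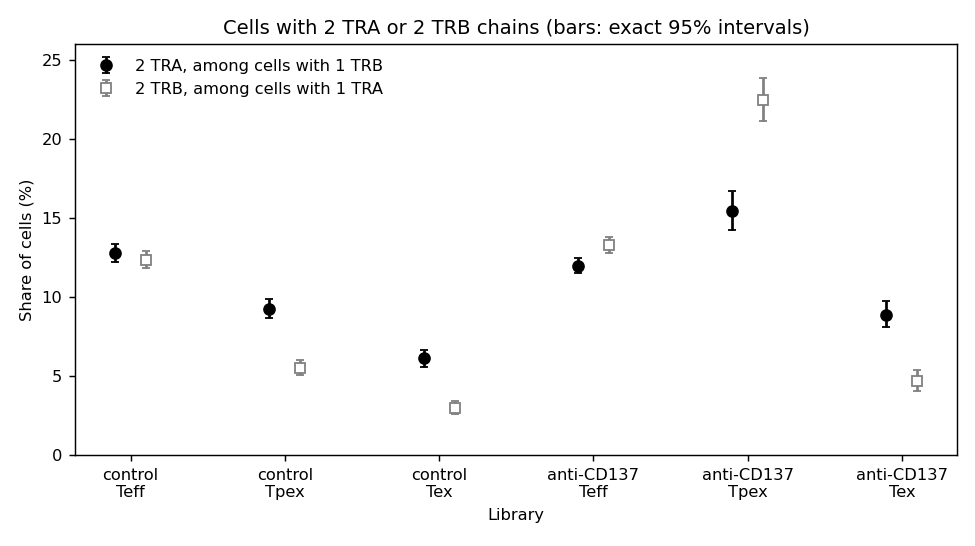
Share of cells with 2 TRA among cells with 1 TRB (black circles) and share with 2 TRB among cells with 1 TRA (open squares) in each of 6 libraries, in percent, with exact 95% intervals as bars. Control dual-TRA shares step down from 12.8% in Teff to 6.12% in Tex, and the anti-CD137 Tpex library is highest on both measures as plotted, at 15.4% and 22.5%, though its dual-TRA share is 7.69% when each chain has at least 2 UMIs.

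The second TRA rested on 1 UMI in 6.38% and 4.12% of dual-TRA cells in control Tpex and Tex and in 23.7% in control Teff. Of the 2 chains, the stronger had a median of 4, 6 and 8 UMIs in control Teff, Tpex and Tex, and the weaker 2, 4 and 5. With anti-CD137 the stronger had 4, 2 and 5 and the weaker 3, 1 and 3. The weaker chain held a median of 38.9 to 40% of a cell's TRA UMIs in each of the 6 libraries. Dual-TRA cells of control Tpex had 11.2 TRA UMIs on average, against 5.50 in single-TRA cells, while their TRB UMIs averaged 20.7 and 16.6. In anti-CD137 Tex the averages were 8.77 and 4.97 TRA UMIs, with 14.4 and 14.1 TRB UMIs. The TRA difference is in part fixed by the rule, since the sum over 2 chains starts at 2 UMIs.

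Dual-TRA cells were also richer in RNA. Their median of RNA UMIs was 4852 against 4397 for single-TRA cells in control Teff, 5119 against 4599 in control Tpex and 6151 against 5603 in control Tex. With anti-CD137 it was 4485 against 3934 in Teff, 2198 against 2048 in Tpex and 3877 against 3669 in Tex. Cells with 2 TRA and 2 TRB had more again, at 8134.5, 8333 and 7957.5 in the control and 7356.5, 2495 and 6457 with anti-CD137. The percent of mitochondrial UMIs was alike in both classes, with medians of 2.26% and 2.27% in control Teff and 1.22% and 1.25% in control Tex.

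The dual-TRA share rose with the RNA UMIs of a cell. In control Teff it was 8.10% below 1500 UMIs (5.36 to 11.6%), 10.4% at 3000 to 4000, 21.3% at 7000 to 10000 and 31.4% at 10000 or more (24.7 to 38.6%). The 2-TRB share in the same cells went from 8.95% through 6.19% and 42.1% to 57.4%. In anti-CD137 Teff the dual-TRA share went from 4.06% below 1500 UMIs to 29.4% at 7000 to 10000 and 26.3% at 10000 or more, where the 2-TRB shares were 57.0% and 43.9%. The part of droplets with 2 cells in this rise was not tested.

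In Tpex and Tex the rise was smaller. Control Tpex went from 5.52% at 2500 to 3000 UMIs to 14.2% at 10000 or more (11.1 to 17.7%), and control Tex from 0.901 to 4.79% in the bins below 3000 UMIs to 7.29% at 10000 or more (5.74 to 9.11%). The 2-TRB share of control Tpex also rose, from 3.75% at 2500 to 3000 UMIs to 17.3% at 10000 or more (14.0 to 21.0%). In control Tex the 2-TRB share stayed between 1.22% and 4.14% over all bins. Anti-CD137 Tpex and Tex showed no steady order over bins. Cells above the library median of RNA UMIs had a higher dual-TRA share than the rest in 6 of 6 libraries, by 1.48 points in anti-CD137 Tex (-0.222 to 3.18, including 0) to 5.69 points in anti-CD137 Teff. Split instead at the median TRB UMIs, the difference was positive in 4 libraries, -0.734 points in anti-CD137 Tpex and -0.189 points in anti-CD137 Tex, both with intervals that include 0.

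**Figure D2:**
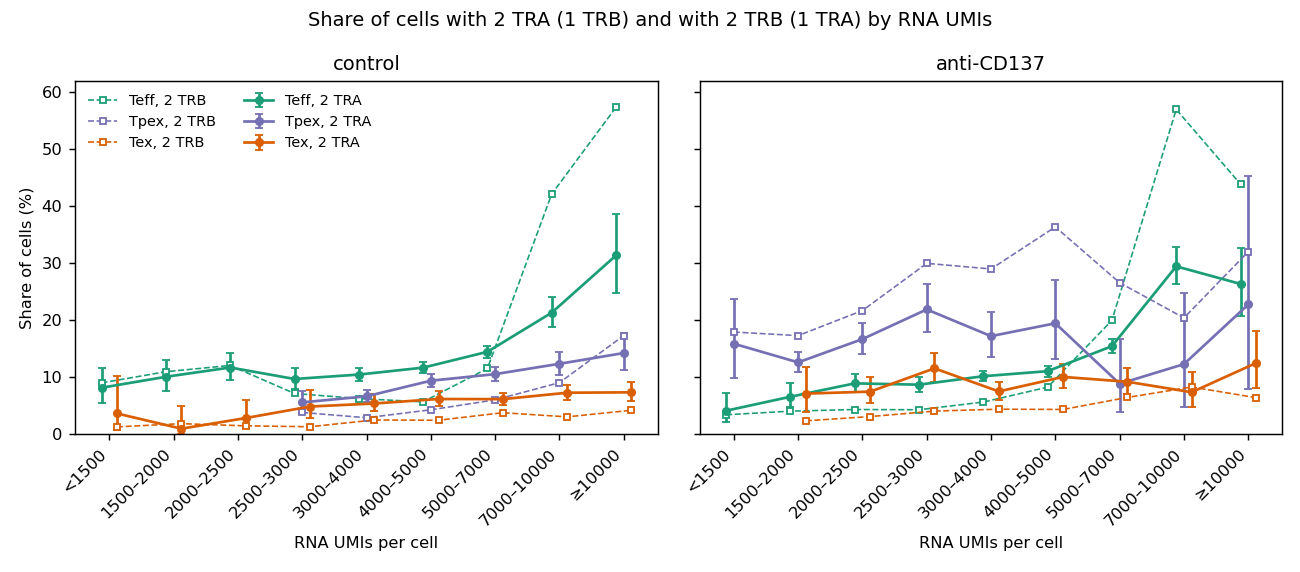
Dual-TRA share (filled circles, solid lines, exact 95% intervals) and 2-TRB share among cells with 1 TRA (open squares, dashed lines) in percent by RNA UMIs per cell, for 3 subsets in the control (left) and with anti-CD137 (right); bins with under 20 cells are left out. In both Teff libraries the shares climb together between 5000 and 10000 UMIs, to 21.3% and 42.1% in the control, while control Tex stays at or below 7.29%.

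TRA depth bears on the rule itself, since 1 UMI can show only 1 chain. In control Teff the share was 0 of 1603 cells with 1 TRA UMI, by construction, 5.69% of cells with 2, 12.9% with 5 or 6 and 64.5% with 15 or more (56.8 to 71.7%). In control Tex it was 1.11% with 2 TRA UMIs and 27.6% with 15 or more. When every cell was reduced to 5 TRA UMIs, leaving out shallower cells, the expected share was 22.5%, 14.0% and 7.74% in control Teff, Tpex and Tex and 22.1%, 25.5% and 13.1% with anti-CD137. The cells kept for this numbered 5882, 5348, 5283, 6778, 562 and 2280 in the same order. The reduced share remained highest in Teff within the control and was 11.5 points higher in anti-CD137 than in control Tpex, there from 562 cells. Cells were kept by TRA UMIs summed over both chains, which favours dual-TRA cells. In anti-CD137 Tpex the median was 3 TRA UMIs in dual-TRA and 2 in single-TRA cells. In control Teff the medians were 7 and 4, and the filter kept 5882 of 14670 cells, against 5283 of 7532 in control Tex. The 11.5 points and the order of the control subsets therefore include what this filter adds.

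Across the clusters the authors deposited, the 2 that held most Teff cells differed in the dual-TRA share and in RNA content. In cluster 2, 14.8% of control Teff (13.9 to 15.7%) and 14.0% of anti-CD137 Teff (13.2 to 14.8%) were dual-TRA cells, with median RNA UMIs of 5158.5 and 4637. Cluster 0 had 11.3% (10.6 to 12.1%) and 10.1% (9.43 to 10.8%), with 3874 and 3374 UMIs. Cluster 6 was below cluster 0 in the control, at 7.94%, but not with anti-CD137, at 11.8%, with medians of 2951.5 and 2960 UMIs. In control Tex, cluster 3 had 6.26% and cluster 4 had 4.36% (2.87 to 6.33%, an overlap), with 5965 and 2870.5 UMIs. In anti-CD137 Tex the same clusters had 8.56% and 8.95%, although cluster 3 held more RNA, at 6262 against 3367 UMIs. Clusters 1 and 5 of anti-CD137 Tpex were at 15.7% (14.4 to 17.1%) and 15.8%, and cluster 0 had 3 of 62 cells, or 4.84% (1.01 to 13.5%).

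Clone size, the number of cells of a library with the same TRB junction, went with the share in Tpex and Tex, though not step by step in control Tex. TRB with 2 to 4 cells had 14.1% there (11.6 to 16.9%), beside 10.1% in control Tpex, 16.0% in anti-CD137 Tpex and 9.94% in anti-CD137 Tex. Among TRB seen in 1 cell, the dual-TRA share in the control was 12.8% in Teff (12.3 to 13.4%), 12.8% in Tpex (11.8 to 13.9%) and 13.7% in Tex (10.9 to 16.8%), so that the 3 intervals overlap. Among TRB with at least 5 cells it was 8.54% in Teff (3.501 to 16.8%), 5.12% in Tpex (4.43 to 5.88%) and 4.57% in Tex (4.07 to 5.12%). The order of the control subsets in all cells was thus not seen among single-cell clones.

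With anti-CD137, TRB seen in 1 cell gave 12.1% in Teff, 17.7% in Tpex and 15.4% in Tex (12.6 to 18.5%). TRB with at least 5 cells gave 12.2% in Teff (8.86 to 16.2%), 6.83% in Tpex (4.75 to 9.46%) and 7.32% in Tex (6.43 to 8.30%). The large minus the single-cell class came to -7.73 points in control Tpex (-9.03 to -6.43), -9.12 in control Tex (-12.3 to -6.32), -10.8 in anti-CD137 Tpex (-13.8 to -7.59) and -8.06 in anti-CD137 Tex (-11.3 to -5.15). In Teff it was -4.28 points in the control and 0.0834 points with anti-CD137, both with intervals that include 0. With at least 2 UMIs per chain the large minus the single-cell class was -3.54 points in anti-CD137 Tpex and -4.96 points in anti-CD137 Tex. When each clone, meaning a TRB with its set of TRA, was counted once, the control shares were 13.0%, 12.9% and 13.8%, and those with anti-CD137 12.2%, 18.3% and 14.6%. The set is that seen in a cell. A TRB with both TRA in some cells and 1 alone in others therefore counts as a dual and as a single clone. These shares are thus not the frequency of dual-TRA clones.

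RNA content was somewhat lower in large clones of the control, with medians of 5607.5 against 6052 RNA UMIs for single-cell TRB in Tex and 4383 against 4920 in Tpex. The median of TRA UMIs was equal in both classes, at 7 in control Tex and 5 in control Tpex. Large clones of anti-CD137 mice had more TRA UMIs than single-cell TRB, at 3 against 2 in Tpex and 5 against 4 in Tex. Their RNA UMIs were 2100 against 1996 in Tpex and 3702 against 3713 in Tex. The 2-TRB share among cells with 1 TRA was also lower in large clones, at 2.71% against 7.25% for single-cell TRB in control Tpex. It was 2.64% against 3.82% in control Tex, with intervals that overlap (2.25 to 3.07% and 2.35 to 5.84%). In anti-CD137 Tpex it was 14.0% against 23.9%, and in anti-CD137 Tex 2.61% against 7.77%. TRB with 2 to 4 cells had the highest 2-TRB share in each of these libraries, at 7.72%, 5.76%, 24.1% and 10.5% in the same order. The part of a removal of rare chains within large clones upstream was not tested.

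**Figure D3:**
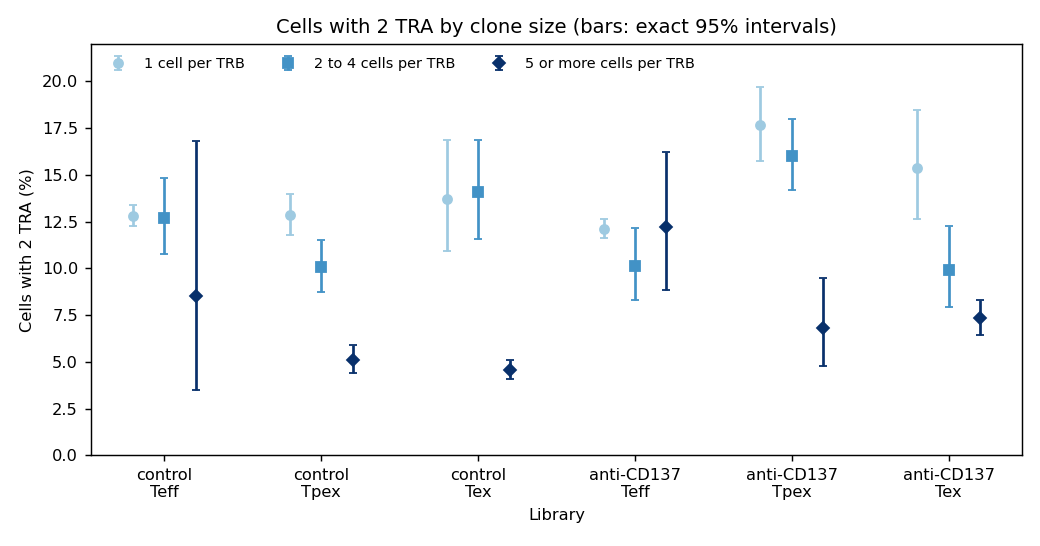
Share of dual-TRA cells in percent, with exact 95% intervals, for TRB seen in 1 cell (light circles), 2 to 4 cells (squares) and 5 or more cells (dark diamonds) in each of 6 libraries. Single-cell classes of the control lie between 12.8% and 13.7%, and the largest class lies lowest in the 4 Tpex and Tex libraries, at 4.57% to 7.32%.

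In control Tpex and Tex, the low share in large clones was made of many clones with 0 dual-TRA cells and few in which most cells had a pair. With anti-CD137, more clones lay between these ends. Of TRB with at least 5 cells, 157 of 190 in control Tpex and 173 of 199 in control Tex had no dual-TRA cell, over 3357 and 5808 cells. The largest of them held 869 and 762 cells. With anti-CD137 there was none in 41 of 63 TRB in Tpex and 142 of 170 in Tex. At the other end, the 2 most frequent TRA occurred together in at least 50% of the cells of 25 TRB in control Tpex (13.2%, 8.70 to 18.8%), 23 in control Tex (11.6%, 7.47 to 16.8%), 13 in anti-CD137 Tex (7.65%, 4.13 to 12.7%), 3 in anti-CD137 Teff, 1 in anti-CD137 Tpex and 0 of 12 in control Teff. These 65 entries, 64 without anti-CD137 Tpex, are called stable pairs below. They are counted per library, so that a clone such as the TRBV31 clone, which met the line in control Tpex and in control Tex, counts in each. A middle group had the pair in 10% to under 50% of cells. It held 2, 6 and 3 TRB in control Teff, Tpex and Tex and 4, 10 and 14 with anti-CD137. In anti-CD137 Teff, Tpex and Tex this group was thus larger than that of the stable pairs.

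The stable pairs held 88.3% of the dual-TRA cells of large clones in control Tpex, 90.6% in control Tex and 69.0% in anti-CD137 Tex, but 52.5% in anti-CD137 Teff and 15.2% in anti-CD137 Tpex. In the remaining large clones the dual-TRA share was 0.641% in control Tpex (0.402 to 0.969%) and 0.457% in control Tex (0.301 to 0.664%). It was 2.46% in anti-CD137 Tex (1.92 to 3.10%) and 5.87% in anti-CD137 Tpex (3.94 to 8.37%). Clones were split by the share of their cells with the pair. The values on both sides are therefore in part fixed by that split. No TRB in any of the 6 libraries had its pair in more than 0 but under 10% of cells, a range that only clones of over 10 cells can fall in. As clones, stable pairs made up 13.2% of large TRB in control Tpex and 11.6% in control Tex. Among single-cell TRB, dual-TRA cells made up 12.8% and 13.7%, with overlapping intervals. With anti-CD137, stable pairs made up 1.59% (0.0402 to 8.53%) in Tpex and 7.65% in Tex. Dual-TRA cells made up 17.7% and 15.4% (12.6 to 18.5%) of single-cell TRB there. The measures are unlike, since stable pairs were called over all cells of a large clone and dual-TRA cells each alone. Both chains were also seen more often in cells with more TRA UMIs, as given below. These values therefore do not show whether dual-TRA clones were equally frequent in both size classes. The 2 largest clones of each library had 0 dual-TRA cells and so were not among the stable pairs. The largest stable pair had 47 cells in control Tpex and 59 in control Tex, and the median of stable pairs was 7 and 8 cells, against 7 and 10 for the other large clones. In anti-CD137 Tex the median was 16 cells, against 8.

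Membership at the 50% line was close for some clones. Inside it, a control Tex clone had the pair in 11 of 22 cells, and outside it, another in 14 of 32. In anti-CD137 Tex, 3 of 6 cells lay inside and 5 of 11 outside. The line was chosen after the data had been seen.

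**Figure D4:**
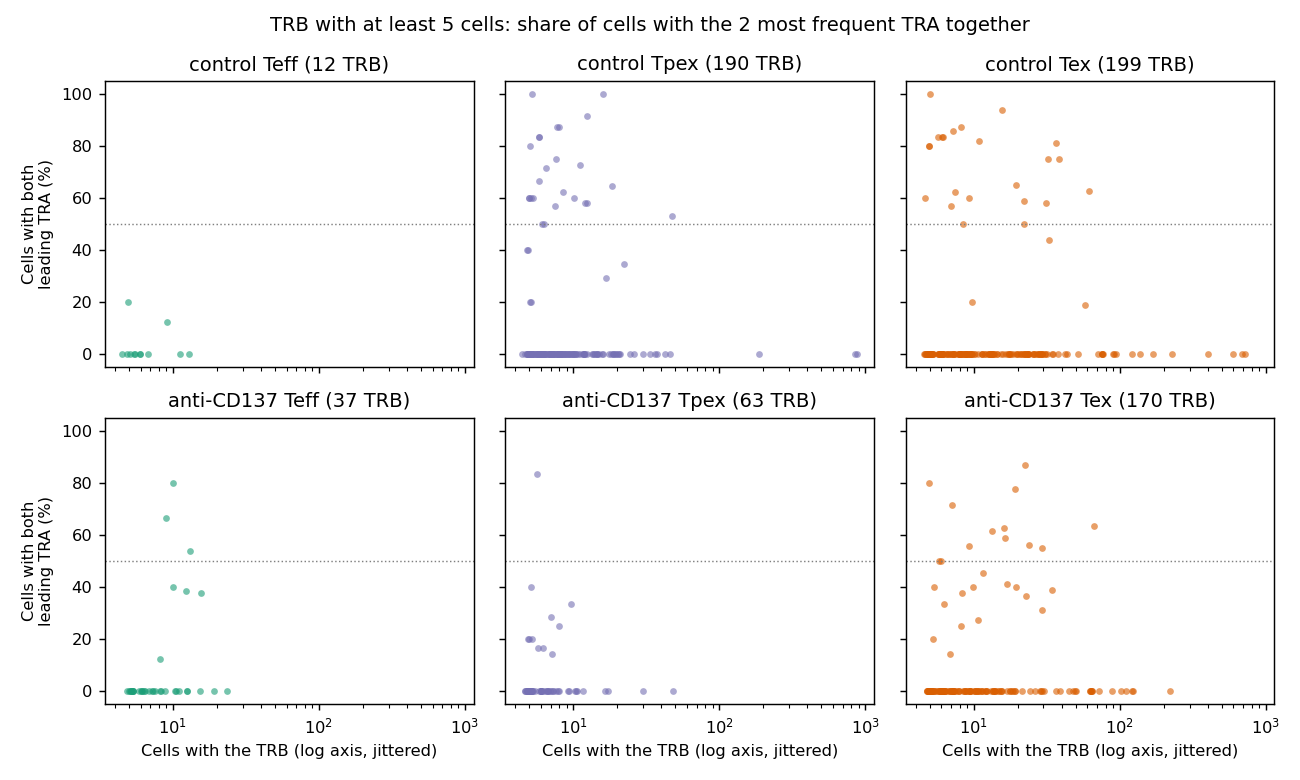
Each point is a TRB with at least 5 cells in a library, placed by its number of cells (log axis, jittered) and by the percent of its cells that carry its 2 most frequent TRA together; the dotted line marks 50%. Most points lie at 0, among them the largest clones (869 cells in control Tpex). At or above the line lie 25 points in control Tpex and 23 in control Tex.

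Within stable pairs, both chains were seen more often in cells with more TRA UMIs. Both were found in 16.1% of cells with 2 TRA UMIs (5.45 to 33.7%, 31 cells), 30.4% with 3 or 4, 62.2% with 5 to 9, 89.9% with 10 to 19 (86.2 to 92.9%, 338 cells) and 96.7% with 20 or more (58 of 60). These clones were chosen for having the pair in most cells, so the levels are a description. Without anti-CD137 Tpex the 3-to-4 bin was 29.8% and the 10-to-19 bin 89.9%. In control Tex, 69.9% of the 372 cells of stable pairs had both chains, 25% the more frequent chain alone and 5.11% the other alone.

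Clone mates, that is other cells of the library with the same TRB, largely carried both chains of a dual-TRA cell in control Tpex and Tex. On average 62.9% of mates had both in control Tpex (373 dual-TRA cells with mates) and 68.1% in control Tex (385 cells), and 2.62% and 0.519% had neither. In anti-CD137 Tex 45.7% had both and 3.31% neither (303 cells). Averaged over clones instead of cells, the shares with both were 47.1%, 62.9% and 20.8%. Where mates had 2 TRA themselves, they held the same pair in 98.1% of cases in control Tpex, 100% in control Tex and 98.4% in anti-CD137 Tex. In these 3 libraries, mates that lacked the pair were thus mostly cells with 1 of its chains alone.

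The other 3 libraries differed. In control Teff 8.74% of mates had both and 59.6% neither (145 cells), in anti-CD137 Teff 22.8% and 40.8% (140 cells), and in anti-CD137 Tpex 9.22% and 47.8% (266 cells). Averaged over clones the shares with both were 4.87%, 10.2% and 5.04%, and with at least 2 UMIs per chain 18.2%, 24.96% and 18.7%. Mates with 2 TRA held the same pair in 55.2%, 76.5% and 39.4% of cases. Single-TRA cells gave the measure for the TRB itself: mates shared the single TRA in 97.3%, 98.7% and 94.1% of cases in control Tpex, control Tex and anti-CD137 Tex, but in 47.2% in control Teff, 62.6% in anti-CD137 Teff and 55.02% in anti-CD137 Tpex. In these last 3 libraries, equal TRB therefore often came with unequal TRA also outside the dual-TRA cells. The single-TRA shares are means over cells, so that large clones weigh most in them, and clone sizes differed between libraries. TRA of the 10 largest clones turned up in dual-TRA cells of other TRB in 4.38% of cases in anti-CD137 Tpex (2.80 to 6.50%, 23 of 525) and in 0 to 0.843% in the other 5 libraries, where the 0 is 0 of 461 cells in control Tex, which allows up to 0.797% by the exact interval. Single-TRA cells showed 0.553% in anti-CD137 Tpex and 0.678% in anti-CD137 Tex, the latter close to the 0.843% of its dual-TRA cells. RNA shared between droplets was not tested as a source.

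The clones printed above illustrate these figures. The TRBV31 clone, with TRAV12-2/TRAJ22 and TRAV7-4/TRAJ6, had 47 cells in control Tpex, of which 25 had both chains, 17 the TRAV12-2 chain alone, 4 the other alone and 1 neither. In control Tex it had 36 cells, 27 with both, 7 and 2 with 1 chain and 0 with neither. The same 2 rearrangements were thus present in both sorted subsets.

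The TRBV2 clone had 59 control Tex cells, 37 with both, 18 with the TRAV17 chain alone and 4 with the TRAV16 chain alone, and 7 Tpex cells, 4 with both. The TRBV12-1 clone of control Tpex carried both chains in 15 of 15 cells and was seen in no other library. In a TRBV26 clone with TRAV14N-2/TRAJ23 and TRAV7-1/TRAJ15, 30 of 37 Tex and 2 of 2 Tpex cells had both. In none of these 4 clones did more than 1 cell lack both chains.

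With anti-CD137, the TRBV19 clone whose chains share TRAJ6 had 68 Tex cells, 43 with both, 17 with the TRAV8D-2 chain alone and 8 with the TRAV13N-3 chain alone, and 2 of 2 Tpex cells with both. A second TRBV19 clone used TRAV13-1 in both chains, joined to TRAJ15 and TRAJ42, and had both in 20 of 23 Tex cells. A TRBV13-1 clone used TRAJ23 in both chains, with both in 17 of 31 cells and the TRAV8N-2 chain alone in 14. The TRBV12-1 clone of Teff had both in 8 of 10 cells. A TRBV14 clone had both in 14 of 36 Tex cells, the TRAV12-2 chain alone in 8 and the TRAV5-4 chain alone in 14. The chain with fewer UMIs was thus the one more often seen alone there, as also in Teff cells of a TRBV29 clone (4 against 2 of 13).

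Some pairs were found in more than 1 sorted subset. A TRBV19 clone with TRAV14-2/TRAJ31 and TRAV6-5/TRAJ26 had the pair in 4 of 10 Teff, 1 of 4 Tpex and 7 of 17 Tex cells of the anti-CD137 mice, with no cell lacking both chains. A TRBV16 clone with TRAV14-1/TRAJ48 and TRAV13-1/TRAJ45 had it in 6 of 9 Teff, 0 of 3 Tpex and 4 of 4 Tex cells. Of 25 stable pairs of control Tpex, the TRB was found in control Tex for 19, and all 19 had the pair there, in 125 of 164 cells (76.2%, 69.0 to 82.5%). Of 23 stable pairs of control Tex, 18 were found in Tpex and 16 with the pair, in 68 of 119 cells (57.1%, 47.7 to 66.2%). With anti-CD137, 7 of 13 Tex pairs were found in Tpex and 4 with the pair, in 5 of 19 cells (26.3%, 9.15 to 51.2%). The libraries share mice within a treatment.

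Between treatments no pair recurred. Of 2585 dual-TRA clones in the control, 63 were in at least 2 libraries and 1 in all 3, and of 2636 with anti-CD137, 15 and 2. Across treatments, 0 clones and 0 of 5211 distinct pairs of TRA were shared, although TRB were. For example, 39 dual-TRA cells of control Teff had a TRB that also occurred in anti-CD137 Teff, and 0 of them found a mate with both TRA there, which allows a share of up to 9.03% by the exact interval. Across the series, 10 pairs of TRA occurred with at least 2 TRB.

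The positions of the 2 chains in the locus were related. In GRCm38 (mm10), the TRA segments lie on the plus strand of chromosome 14, and the GENCODE M21 annotation places TRAJ61, the J segment nearest to the V segments, at chr14:54155005-54155076 and TRAJ1, the farthest, at chr14:54218814-54218842. Segments were ranked in this order, 128 V and 60 J, of which 89 and 43 occur in the receptor table, and each clone was counted once. The 2 TRAJ of a cell lay 10.3 ranks apart in control Teff (SD 9.02, n = 1867 clones), against 15.4 for TRA taken from different cells. In control Tpex they lay 9.13 ranks apart (SD 8.00, n = 632) against 15.6, and in control Tex 8.35 (SD 7.20, n = 150) against 16.0. In anti-CD137 Teff the distances were 10.1 and 15.6 (n = 1962), in anti-CD137 Tex 11.2 and 15.4 (n = 186), and in anti-CD137 Tpex 14.6 and 15.9 (n = 505). The distance within cells was the smaller in 6 of 6 libraries, by the least in anti-CD137 Tpex.

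Spearman's rho between the TRAJ ranks of the 2 chains, given as a description over clones that share libraries, was 0.48, 0.59 and 0.67 in control Teff, Tpex and Tex and 0.51, 0.12 and 0.41 in anti-CD137 Teff, Tpex and Tex. In cells with 2 TRA and 2 TRB it was 0.16 in control Teff (944 clones), 0.19 in control Tpex (221), 0.15 in anti-CD137 Teff (1310) and 0.16 in anti-CD137 Tpex (226). The few such clones of control Tex (17) gave 0.46, below the 0.67 of dual-TRA cells there. Those of anti-CD137 Tex (31) gave 0.52, above the 0.41 of dual-TRA cells there. Over 5 libraries without anti-CD137 Tpex, rho was 0.51 in dual-TRA cells (4797 clones) and 0.17 in cells with 2 of each chain (2523 clones). Their TRAJ were within 5 ranks in 37.6% (36.3 to 39.0%) and 26.4% (24.7 to 28.2%).

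The relation was weaker where the second chain rested on 1 UMI in 5 of 6 libraries. In control Teff rho was 0.18 for those 444 clones and 0.57 for the 1424 in which the weaker chain had at least 2. In anti-CD137 Teff it was 0.32 and 0.55, in anti-CD137 Tex 0.20 and 0.50, and in anti-CD137 Tpex 0.06 and 0.27. In control Tpex it was 0.33 (55 clones) and 0.62, and in control Tex 0.69 (16 clones) and 0.68. With chains of at least 2 UMIs, anti-CD137 Tpex thus stayed the lowest of the 6. In anti-CD137 Teff rho was 0.61 in cells below the library median of RNA UMIs and 0.41 at or above it. In control Tpex it was 0.63 and 0.55 and in control Tex 0.72 and 0.60, while in control Teff, anti-CD137 Tpex and anti-CD137 Tex it differed by less, at 0.48 and 0.47, 0.11 and 0.14, and 0.42 and 0.45.

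When the 60 TRAJ were cut into 3 sets of 20 along the locus, a stronger chain from the set nearest to V had a weaker chain from the same set in 56.6% of clones (53.5 to 59.6%), against 22.6% of all weaker chains, over 5 libraries without anti-CD137 Tpex. A stronger chain from the set farthest from V had a partner of that set in 49.0% (46.3 to 51.7%), against 27.2%, and of the nearest set in 6.96%. In anti-CD137 Tpex the matching shares were 22.3% against 18.4% and 39.6% against 33.5%. V segments were less related, with rho of 0.15 to 0.22 in the 5 libraries and 0.05 in anti-CD137 Tpex.

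**Figure D5:**
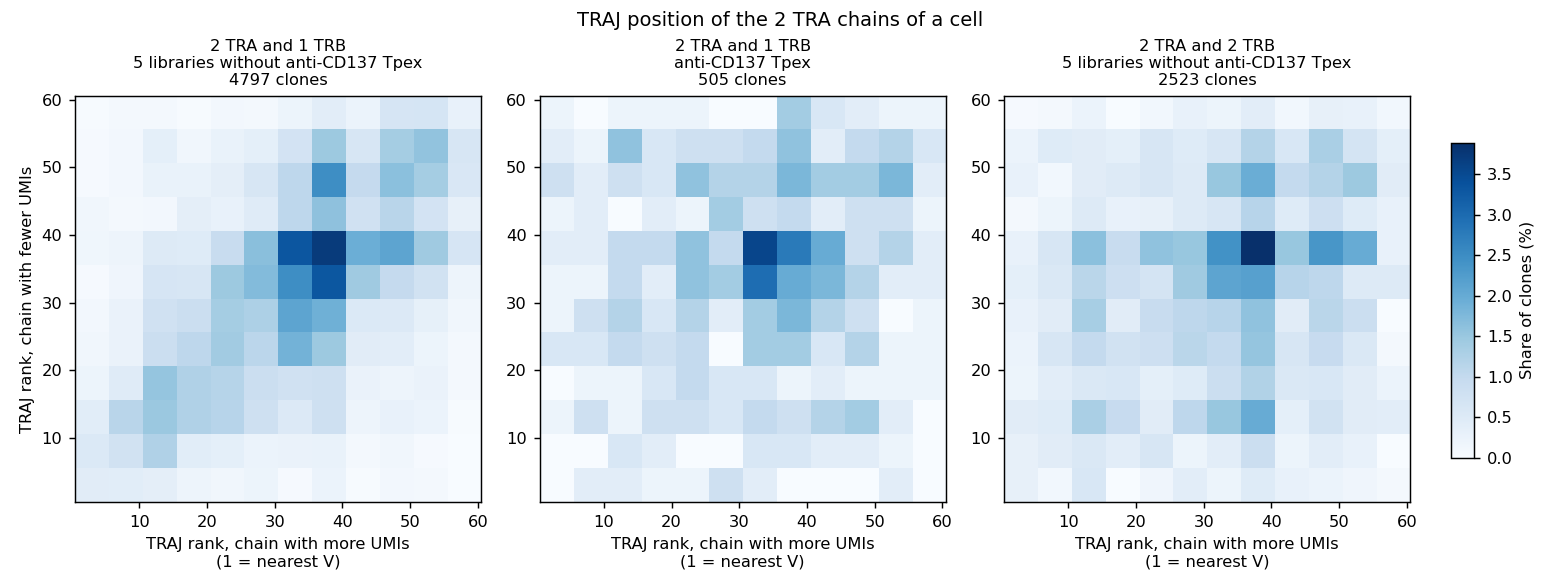
TRAJ rank (1 = nearest to the V segments, 60 = farthest) of the chain with more UMIs (horizontal) and with fewer UMIs (vertical) of each clone, in squares of 5 ranks coloured by percent of clones, for dual-TRA cells of 5 libraries (left), of anti-CD137 Tpex (middle) and for cells with 2 TRA and 2 TRB (right). The left panel (4797 clones, rho 0.51) is filled along its diagonal, and the right panel (2523 clones, rho 0.17) less so.

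Both chains drew on the whole locus, as single chains did, but in somewhat different shares. The set of TRAJ nearest to V was used by 21.4% of stronger chains (20.3 to 22.5%), 22.2% of weaker chains (21.1 to 23.3%) and 25.02% of single chains (24.6 to 25.5%), over all libraries. Single chains were above both chains in 4 of 6 libraries, but in anti-CD137 Tpex the stronger chain had 22.2% against 21.0% of single chains, and in control Tex the weaker had 24% against 23.4%. The middle set took 50.9%, 50.02% and 48.1%. For V segments cut the same way, the set farthest from the J segments took 20.05%, 20.1% and 19.4%. Junctions had 2.90, 2.87 and 2.77 bases on average that matched neither segment (SD 2.20, 2.23 and 2.81), differences far smaller than the spread between clones.

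The V segments most used by the weaker chain were TRAV6D-6 (chr14:52821922-52822359, 4.62% of weaker, 2.98% of stronger and 3.61% of single chains), TRAV16N (4.06%, 2.70% and 4.16%), TRAV13-1 (4.02%, 3.77% and 3.70%), TRAV12D-3 (3.98%, 4.04% and 4.89%) and TRAV12-2 (3.81%, 3.96% and 5.07%). Over all 89 TRAV, the interval of the stronger chain lay above that of single chains for 14 segments and below for 8, and that of the weaker chain for 13 and 5. Among 43 TRAJ the counts were 7 and 3 for the stronger and 7 and 4 for the weaker chain. TRAV13N-3, named after its values were seen, was used by 0.754% of stronger, 0.415% of weaker and 0.102% of single chains. Many mouse TRAV are near-identical copies, so that a name may stand for its copy too. These segments were picked for their use by the weaker chain, so a higher share there is in part fixed by the choice. For TRAV6D-6 and TRAV16N the intervals of weaker and stronger chains do not overlap, at 4.07 to 5.22% and 2.54 to 3.47% for the former.

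The J segments most used by the weaker chain were TRAJ22 (chr14:54197248-54197307, 6.39%, against 7.47% of stronger and 7.98% of single chains), TRAJ30 (4.81%), TRAJ23 (4.75%), TRAJ26 (4.75%) and TRAJ31 (4.58%). TRAJ31, at chr14:54187895-54187951, was used by 4.58% of weaker and 4.75% of stronger chains but 3.62% of single chains (3.43 to 3.82%). TRAJ22 was below its single-chain share in the weaker chain (5.75 to 7.09% against 7.70 to 8.26%).

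Within a dual-TRA cell the chains had the same V in 3.43% and the same J in 5.37% of the 6123 cells, and both in 11 cells. Large clones weigh most in these shares. With each clone counted once, the same V was found in 2.38 to 3.64% by library. The use of V segments by the 2 chains gives an expected 1.62 to 2.13%. For J it was 2.57 to 6.65% against 2.94 to 3.14%, lower than expected only in anti-CD137 Tpex. Intervals included the expected V value in control Tex, anti-CD137 Tpex and anti-CD137 Tex. In 1 cell the junctions were identical, and no other pair of junctions of 1 length differed at 2 bases or fewer. Alpha chains of unconventional T cells, which serve as markers of other cell types, were rare. The invariant NKT chain (TRAV11 family with TRAJ18) was found in 5 dual-TRA cells (0.0817%, 0.0265 to 0.190%), in 2 of them as the weaker chain, and in 18 single-TRA cells (0.0360%). The MAIT chain (TRAV1 with TRAJ33) was found in 2 dual-TRA and 8 single-TRA cells.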

How the data were processed

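Gene expression and receptor libraries came from a Chromium 5′ kit and a NextSeq, per the labels' protocols. Cell Ranger 3.0.2, Seurat 4.0.0 and the build mm10 appear in the submitters' processing notes, with no role. The authors deposited, per receptor contig, the count of UMIs and of reads with segments and junction, and per cell the count of RNA UMIs and genes, the percent of mitochondrial and ribosomal protein UMIs and a cluster number. All contigs in the table were marked productive. Each contig was matched to its cell through library and barcode, and of a cell's 2 TRA the one with more UMIs was the stronger. The sources used here do not say how doublets were handled, and no doublet caller was run, since gene values were not used. Intervals are exact 95% Clopper-Pearson intervals (scipy 1.17.1), and differences have Newcombe intervals built from them. UMI bins under 20 cells and clusters under 50 cells in a library were left out. Junction ends were matched to germline with at least 3 bases of V (within its last 24 bases) and 6 of J.

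Named clones are the 3 TRB with the most cells of 1 pair in each library and the 5 largest pairs in at least 2 libraries of a treatment, of which some are described. Named segments are the 5 TRAV and 5 TRAJ used most by the weaker chain. The members and lists were chosen with earlier results of these data known. The split of large clones at 50%, cells under 5000 RNA UMIs and TRB UMIs were chosen after seeing the data. Thinning, pairing distances and mate shares were tested on simulated data. Python 3.11.15, numpy 2.4.6, pandas 2.3.3 and matplotlib 3.10.9 were used.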

Additional observations from a re-analysis of the deposited data

Results flagged for a closer look

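In the main setting the treatments differed in the dual-TRA share in opposite directions between subsets. There, anti-CD137 minus control was -0.787 percentage points in Teff, 6.18 points in Tpex and 2.78 points in Tex. With at least 2 UMIs per chain it was -0.188 points in Teff and -1.45 in Tpex. Without the 10 largest TRB it was -0.543 points in Tex. The opposite directions thus did not hold under every setting. With 1 library per group, the difference between subsets was not tested.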

How the results depend on the processing

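The TRAJ distance within cells stayed below that between cells in 6 of 6 libraries under each of its 4 alternatives. Shares, treatment differences and mate shares that moved beyond their interval follow, with every value that turned. A further 13 values of other kinds moved and kept their direction. Beyond the construction of each setting the cause was not tested. With at least 2 UMIs per chain the dual-TRA share was 11.4% in control Teff and, with anti-CD137, 11.2% in Teff, 7.69% in Tpex and 8.00% in Tex, and the Tpex difference was -1.45 points. With all receptor barcodes it was 9.76% and 8.00% in anti-CD137 Tpex and Tex, and the Tpex difference 0.871 points. With each clone once it was 12.9% and 13.8% in control Tpex and Tex and 18.3% and 14.6% with anti-CD137, and the Tex difference 0.834 points. Reduced to 5 TRA UMIs, a filter that dual-TRA cells pass more readily, it was 22.5%, 14.0% and 7.74% in the control. With anti-CD137 it was then 22.1%, 25.5% and 13.1%, with differences of 11.5 points in Tpex and 5.38 in Tex. Without the 10 largest TRB it was 11.6% and 10.8% in control Tpex and Tex and 10.3% in anti-CD137 Tex, with differences of 4.58 points in Tpex and -0.543 in Tex. Under 5000 RNA UMIs it was 10.8%, 7.64% and 5.21% in the control and 9.79% in anti-CD137 Teff, and the Tpex difference 7.97 points.

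Among mates with 2 TRA the share with both was 55.2%, 98.1% and 100% in control Teff, Tpex and Tex and 76.5%, 39.4% and 98.4% with anti-CD137. Averaged over clones it was 47.1% and 62.9% in control Tpex and Tex and 10.2%, 5.04% and 20.8% with anti-CD137. With at least 2 UMIs it was 18.2% in control Teff and 18.7% and 48.8% in anti-CD137 Tpex and Tex. With clone size over the 3 libraries of a treatment, the large minus the single-cell class was -0.692 points in anti-CD137 Teff. By TRB UMIs, the difference at the median was -0.734 and -0.189 points in anti-CD137 Tpex and Tex.

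No test was run, so there is no blocked or paired fit. Depth limits the anti-CD137 Tpex library most. A second chain of 1 UMI cannot be told from shared RNA, and 2 cells in 1 droplet were not called.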
